A study of Mus musculus with 4 samples.

Results

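The tectorial membrane is an extracellular gel that lies over the organ of Corti and touches the hair bundles of the outer hair cells (OHCs). It is built of collagen fibrils and of non-collagen glycoproteins, among them the tectorins, and related gels cover the sensory patches of the vestibular organs. This account follows 6 genes for non-collagen proteins of these membranes and of the tissue around them, *Tecta*, *Tectb*, *Ceacam16*, *Otog*, *Otoa* and *Otos*. Every non-control probe with 1 of these gene names in the array files was taken, which gave 7 of the 39429 probes on the array, 2 for *Tectb* and 1 for each other gene, and 6 of the 30028 gene names.

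Cochlear RNA came from wild-type and *Prestin*-*hDTR* mice of the C57BL/6J background, each untreated or DT-treated, all 5 weeks old. DT is diphtheria toxin, given at 50 μg/kg body weight 7 days before dissection, and the untreated groups received none. *Prestin*-*hDTR* mice of 1 transgenic line carry a human DT receptor (a modified HB-EGF) driven by the promoter of *Slc26a5*, the prestin gene of OHCs, so DT is aimed at these cells. RNA of each group was pooled, with 4 females and 4 males per group in the labels and 8 cochleae in the methods, and hybridised with Cy3 to 1 array, with all 4 arrays on 1 slide. Because each group is a single array, the differences lack any replicate error, their number of arrays sets the precision, and no tests were run.

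The levels below are normalized log2 signals, that is, the log2 of a probe's background-subtracted signal minus the 75th percentile of its own array, so 0 is the 75th percentile. The error beside a level is that of the scanner software's error model for the 1 spot of the probe. It was 0.14 or 0.15 for each level of the 6 probes measured on all arrays, and 0.20 or 0.21 for a log2 ratio of 2 such levels. This error covers the spot and not the spread between mice. Levels are compared only for the same probe across arrays, because probes differ in how brightly they bind.

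The labels were first set against markers of OHCs, the cells that DT should remove. Of the 8 OHC genes listed, 4 were 2-fold or more below each other group in DT-treated *Prestin*-*hDTR* mice, namely *Strc*, *Ocm*, *Chrna9* and *Chrna10*. The summed OHC signal, with the 75th percentile of an array as 1, was 25.3 and 23.4 for untreated and DT-treated wild-type mice, and 25.4 and 6.12 for untreated and DT-treated *Prestin*-*hDTR* mice. Oncomodulin (*Ocm*) had levels of 4.36, 4.21, 4.35 and 1.97 in the same order. The *Slc26a5* probe lost its detection (not well above background) on the array of DT-treated *Prestin*-*hDTR* mice. In whole cochlear RNA, fewer cells of a type and less RNA per cell cannot be told apart.

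*Tecta* and *Tectb* encode α-tectorin and β-tectorin, the partner glycoproteins of the striated sheet in which the collagen fibrils of the tectorial membrane are embedded. Both carry a zona pellucida domain, a fold held by cysteine bridges through which such proteins assemble into filaments, and both genes are known for high expression while the membrane is laid down in early life. The *Tecta* probe (A_51_P499288) had a normalized log2 signal of -7.55 for the untreated wild-type group, -4.25 for DT-treated wild-type mice, -4.79 for untreated *Prestin*-*hDTR* mice and -7.38 for DT-treated *Prestin*-*hDTR* mice. It was well above background on 2 of the 4 arrays, DT-treated wild-type (error 0.22) and untreated *Prestin*-*hDTR* (error 0.19), whose levels differed by 0.53. On the remaining arrays the software's error was 86.6% and 99.6% of the signal, and neither level was well above background.

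The 2 *Tectb* probes gave nearly the same profile. The brighter probe (A_52_P120813) had a normalized log2 signal of -0.67 for the untreated wild-type group, -0.48 for DT-treated wild-type mice, -0.34 for untreated *Prestin*-*hDTR* mice and -0.67 for DT-treated *Prestin*-*hDTR* mice. The dimmer probe (A_66_P115682) had -2.43, -2.21, -2.15 and -2.46 in the same order of groups. Both probes ranked the arrays alike, with DT-treated *Prestin*-*hDTR* mice lowest and untreated *Prestin*-*hDTR* mice highest, and between the arrays the probes moved apart by at most 0.07. The whole range was 0.34 for the brighter and 0.31 for the dimmer probe, less than 2 errors of a ratio, and the lowest levels lay only 0.009 and 0.026 under those of untreated wild-type mice. No pair of arrays differed in *Tectb* by more than 2 errors.

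*Ceacam16* encodes a secreted protein of the carcinoembryonic antigen family that binds α-tectorin, is made by supporting cells of the organ of Corti and is needed for the striated sheet of the adult membrane. Its probe (A_55_P1973501) had a normalized log2 signal of 6.22 for the untreated wild-type group, 5.92 for DT-treated wild-type mice, 6.26 for untreated *Prestin*-*hDTR* mice and 6.66 for DT-treated *Prestin*-*hDTR* mice. DT-treated *Prestin*-*hDTR* mice were highest by 0.40, the gap to untreated *Prestin*-*hDTR* mice, and DT-treated wild-type mice were lowest by 0.30. The 3 groups other than DT-treated *Prestin*-*hDTR* mice spanned 0.34. The untreated groups of both genotypes, next to each other in the order, differed by 0.04. The spot reached at most 37.6% of the signal at which the scanner saturates.

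*Otog* encodes otogelin, a large mucin-like glycoprotein with von Willebrand D domains that occurs in all acellular membranes of the inner ear, the tectorial membrane as well as the otoconial membranes and cupulae of the vestibular organs. Its probe (A_51_P242687) had a normalized log2 signal of -1.27 for the untreated wild-type group, -0.23 for DT-treated wild-type mice, -0.37 for untreated *Prestin*-*hDTR* mice and -0.58 for DT-treated *Prestin*-*hDTR* mice. Untreated wild-type mice stood apart below the other 3 groups, by 0.69 from the next level. The other 3 groups lay within 0.35 of each other, which is less than 2 errors of a ratio. Among the 6 probes measured on all arrays, *Otog* had the widest range, 1.04, and 3.49% of all probes well above background on the 4 arrays had a range at least as wide.

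*Otoa* encodes otoancorin, which fixes the tectorial membrane to the spiral limbus, and which belongs to the same family as stereocilin and mesothelin. Its probe (A_55_P1959610) had a normalized log2 signal of -1.50 for the untreated wild-type group, -1.35 for DT-treated wild-type mice, -1.27 for untreated *Prestin*-*hDTR* mice and -0.92 for DT-treated *Prestin*-*hDTR* mice. DT-treated *Prestin*-*hDTR* mice were highest, by 0.34, and the other 3 groups spanned 0.24. As for *Ceacam16*, the step from untreated to DT-treated *Prestin*-*hDTR* mice was within 2 errors of a ratio.

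*Otos* encodes otospiralin, a small protein of the fibrocytes of the spiral ligament and spiral limbus rather than of the tectorial membrane itself. Its probe (A_52_P473106) had a normalized log2 signal of 7.20 for the untreated wild-type group, 7.41 for DT-treated wild-type mice, 6.99 for untreated *Prestin*-*hDTR* mice and 6.99 for DT-treated *Prestin*-*hDTR* mice. The *Prestin*-*hDTR* groups did not differ from each other at 2 decimals. Both lay below the wild-type groups, by less than 2 errors of a ratio from untreated wild-type mice. The mean signal of the spot reached 64.6% of the saturation value on the brightest array, and no spot on any array was saturated.

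**Figure D1:**
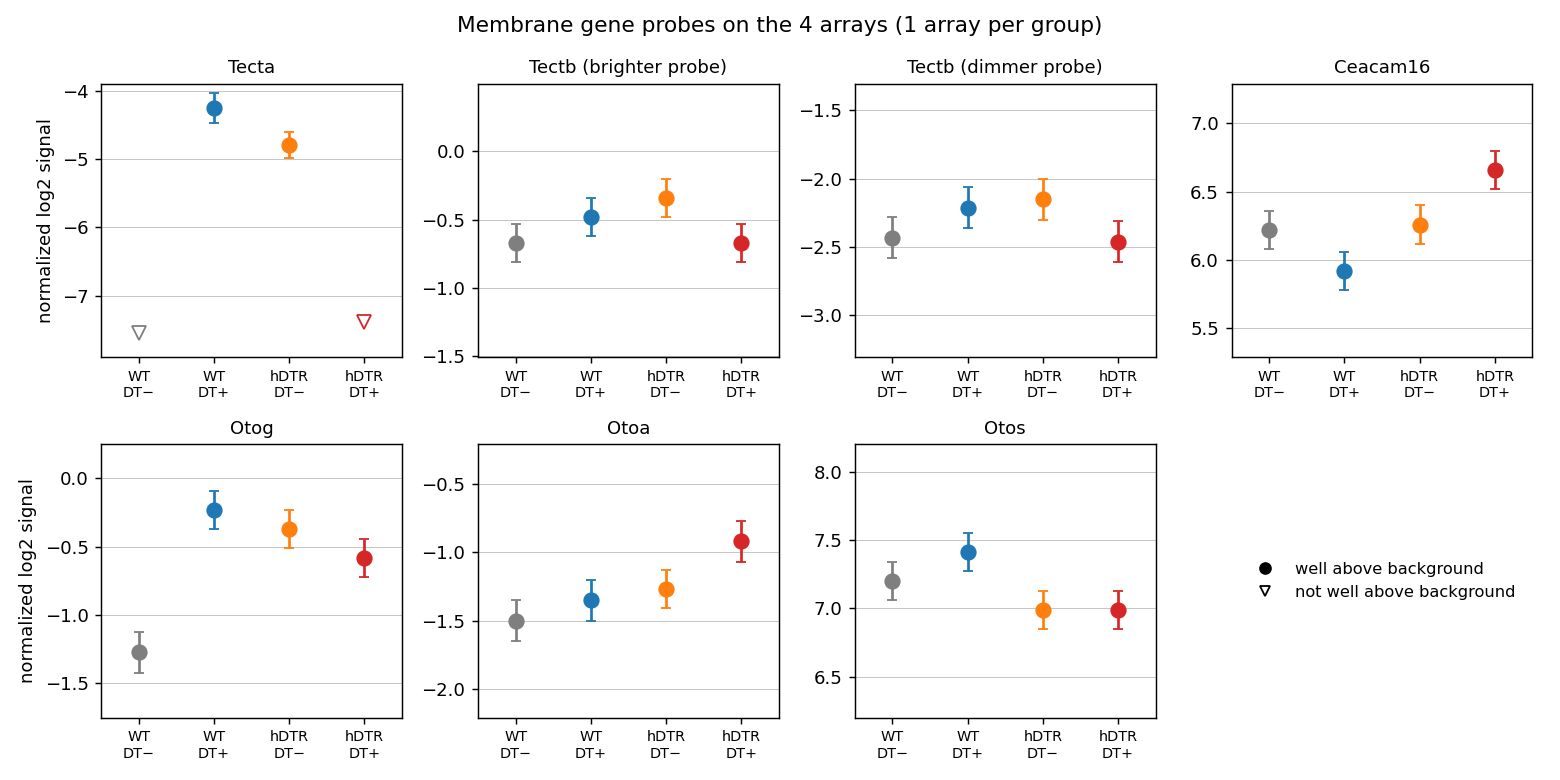
Normalized log2 signal (y axis) of the 7 membrane gene probes on the 4 arrays (x axis: WT, wild-type; hDTR, *Prestin*-*hDTR*; DT−, untreated; DT+, DT-treated). Bars are the error of the spot from the scanner software, open triangles are signals not well above background, and the *Tecta* panel spans a wider range than the others. *Ceacam16* and *Otoa* were highest in DT-treated *Prestin*-*hDTR* mice, and *Otog* was lowest in untreated wild-type mice.

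The comparisons that follow take in each probe that either array detected well above background, and count a change of 2-fold or more, the screen named in the methods. Where the dimmer array did not detect the probe, a level below the array's floor was replaced by that floor, and the fold is then a lower bound. The floor is the lowest level of any detected probe on the array. Such a bound holds only under the background correction of the scanner software. *Tecta* entered each of its comparisons only through the array that detected it, so its folds rest on the floor and are not measured ratios. The floor was -5.93 for untreated wild-type mice, -5.48 for DT-treated wild-type mice, -6.39 for untreated *Prestin*-*hDTR* mice and -5.44 for DT-treated *Prestin*-*hDTR* mice. Of the 30 log2 ratios of members measured on both arrays, 8 were larger than 2 errors. These were 3 for *Otog*, 2 each for *Ceacam16* and *Otoa* and 1 for *Otos*, with 0 for *Tectb*. The share of all probes past 2 errors was not counted, so these counts are not a result about the members. Under other corrections or scalings, the *Otos* ratio and 1 ratio each of *Ceacam16* and *Otoa* came under 2 errors, the 3 for *Otog* stayed above, and 1 more of *Ceacam16*, between the *Prestin*-*hDTR* groups, rose above (0.43 with quantile normalization and 0.41 in the value table).

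The effect of DT in mice that carry its receptor is given by DT-treated against untreated *Prestin*-*hDTR* mice. None of the 7 member probes changed by 2-fold or more (0 of 7), where 3.84% of all 28082 probes compared did. *Ceacam16* was higher by 0.40 on the log2 scale (1.32-fold, error 0.20), *Otoa* was higher by 0.34 (1.27-fold, error 0.21), and the *Otos* ratio was 0.00. The log2 ratio was -0.34 and -0.31 for the *Tectb* probes and -0.21 for *Otog*, and *Tecta* was at least 1.58-fold lower. Among all probes compared, 15.3% had a ratio at least as large as *Ceacam16* and 18.8% at least as large as *Otoa*. The median log2 ratio of the 7 probes was -0.21 (-0.11 with 1 probe per gene, the brighter for *Tectb*), beside 0.00 over all probes.

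Against DT-treated wild-type mice, which received the same toxin without its receptor, DT-treated *Prestin*-*hDTR* mice had 1 of the 7 member probes changed by 2-fold or more, beside 3.24% of 25394 probes. This was *Tecta*, at least 2.28-fold lower. *Ceacam16* was 1.67-fold higher (log2 ratio 0.74, error 0.20), and 5.58% of all probes had a ratio at least as large. *Otoa* was 1.34-fold higher (0.42, error 0.21), and *Otos* had a ratio of -0.42 (error 0.20), which was -0.14 with quantile normalization. *Otog* had a ratio of -0.35, and the *Tectb* probes had -0.19 and -0.24, all within 2 errors. The median log2 ratio of the 7 probes was -0.24 (-0.27 with 1 probe per gene), beside 0.005 over all probes.

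Against untreated wild-type mice, DT-treated *Prestin*-*hDTR* mice had none of the 6 comparable member probes changed by 2-fold or more (0 of 6), beside 3.91% of 26810 probes. *Tecta* was not well above background on either array and has no fold. *Otog* was 1.61-fold higher (0.69, error 0.21), *Otoa* 1.49-fold (0.58, error 0.21) and *Ceacam16* 1.36-fold (0.44, error 0.20). The *Otos* ratio was -0.21. The *Tectb* probes had ratios of -0.01 and -0.03, whose sign turned under some of the scalings tried, to 0.05 and 0.04 with the median of each array. The median log2 ratio of the 6 probes was 0.22 (0.44 with 1 probe per gene), beside -0.026 over all probes.

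Without toxin, untreated *Prestin*-*hDTR* against untreated wild-type mice shows differences that go with the genotype or with these RNA pools, which cannot be told apart. Here 1 of the 7 member probes changed by 2-fold or more, beside 3.33% of 28327 probes. *Tecta* was at least 2.20-fold higher in untreated *Prestin*-*hDTR* mice. *Otog* was 1.86-fold higher (0.90, error 0.20), a ratio that 3.84% of all probes reached. *Tectb* had ratios of 0.33 and 0.29, *Otoa* had 0.24, *Ceacam16* had 0.04 and *Otos* had -0.21, all within 2 errors. The median was 0.29 (0.28 with 1 probe per gene), beside -0.005 over all probes.

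The comparison of DT-treated with untreated wild-type mice concerns animals that carry no DT receptor transgene. Here 2 of the 7 member probes changed by 2-fold or more, beside 2.55% of 26727 probes. *Tecta* was at least 3.19-fold higher after DT, and *Otog* was 2.06-fold higher (1.04, error 0.20), the latter a ratio that 2.37% of all probes reached. *Ceacam16* had a ratio of -0.30, *Otos* 0.20, *Otoa* 0.15 and *Tectb* 0.19 and 0.22, all within 2 errors. The median was 0.20 (0.20 with 1 probe per gene), beside -0.033 over all probes. The 3 comparisons with untreated wild-type mice share that array, so their ratios are not independent, and the same holds for the 3 with DT-treated *Prestin*-*hDTR* mice.

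The *Tecta* and *Otog* calls depended on the background correction. With the normexp method in place of the correction of the scanner software, no member passed 2-fold in any comparison (0 in each), beside 1.24% to 2.25% of all probes (2.55% to 3.91% with the software correction). Under normexp the *Tecta* log2 ratios lay between -0.48 and 0.64 and *Otog* in DT-treated wild-type mice lay just short at 0.99. A lower threshold of 1.5-fold added *Tecta* between the *Prestin*-*hDTR* groups, *Ceacam16* against DT-treated wild-type mice, and *Otog* in both *Prestin*-*hDTR* groups against untreated wild-type mice. At 1.5-fold, 1 of 7 probes passed between the *Prestin*-*hDTR* groups (8.46% of all probes), and 2 of 7 passed against DT-treated wild-type mice (8.35%). At the same threshold, 1 of 6 passed in DT-treated *Prestin*-*hDTR* against untreated wild-type mice (10.4%), 2 of 7 between the untreated groups (6.74%) and 2 of 7 between the wild-type groups (5.81%).

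**Figure D2:**
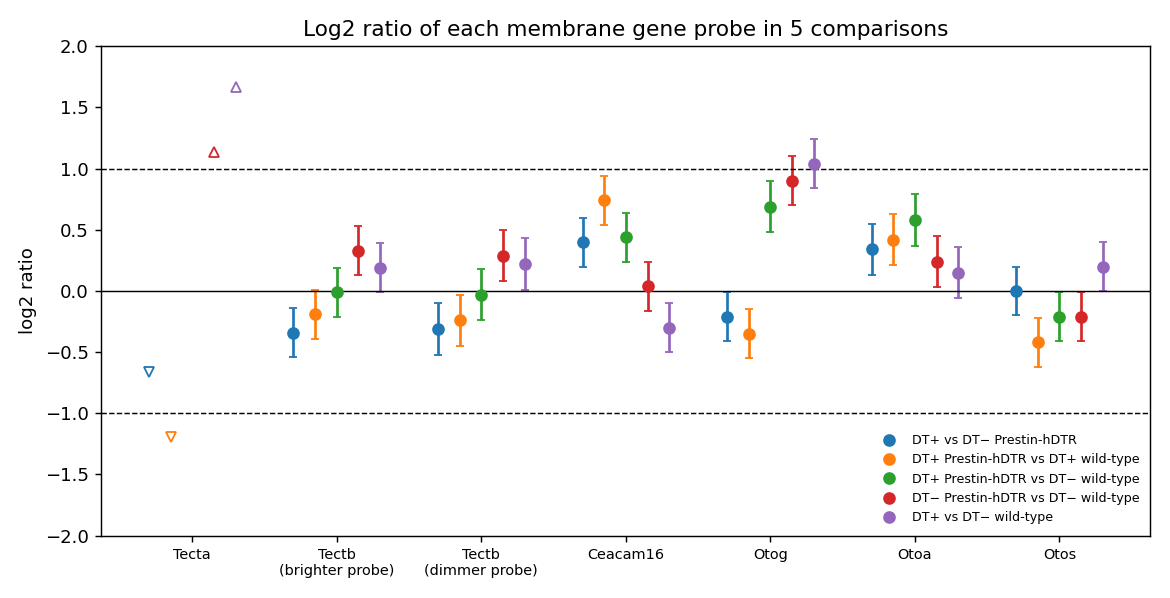
Log2 ratio (y axis) of each membrane gene probe (x axis) in the 5 comparisons (colours), with the error of the ratio from the scanner software as bars. Open triangles are lower bounds, drawn at the bound and pointing in their direction, and the dashed lines mark 2-fold. Past these lines lie the *Tecta* bounds in 3 comparisons and *Otog* in DT-treated against untreated wild-type mice.

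Subtracting the DT effect in wild-type mice from that in *Prestin*-*hDTR* mice gave -1.25 for *Otog* on the log2 scale (error 0.29) and 0.69 for *Ceacam16* (error 0.29), which came under 2 errors with quantile normalization (0.54). The difference was -0.52 and -0.53 for the *Tectb* probes, 0.19 for *Otoa* and -0.20 for *Otos*, all within 2 errors. The *Otog* value came mostly from the wild-type side, where the DT effect was 1.04, against -0.21 in *Prestin*-*hDTR* mice. The *Ceacam16* value joined 0.40 in *Prestin*-*hDTR* mice with -0.30 in wild-type mice.

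Probes are placed by the array files on the mm9 build. *Ceacam16* (chr7:20437446-20437505, minus strand), *Otog* (chr7:53566329-53566388, plus strand) and *Otoa* (chr7:128291203-128291262, plus strand) lie far apart on chromosome 7. *Otos* lies at chr1:94540914-94540973 on the minus strand, and *Tectb* at chr19:55270559-55270618 (brighter probe) and chr19:55266006-55266065 (dimmer probe), both on the plus strand. The *Tecta* probe spans 658 bases of the minus strand (chr9:42138356-42139013) for its 60 bases, so it crosses an intron and reads spliced RNA. The GC content was 43.3% for the *Tecta* probe, 40.0% and 48.3% for the brighter and the dimmer *Tectb* probe, 53.3% for *Ceacam16* and *Otog*, and 55.0% for *Otoa* and *Otos*. No mm9 annotation was used here, so exon numbers are not given.

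The designed sequences of 3 probes are printed because they show what was read for the tectorins and for otoancorin. The capitals mark the cysteine codons (TGT or TGC) of a reading frame without a stop codon. Cysteines hold the zona pellucida fold of the tectorins together, but whether the marked codons lie in that domain was not examined. For *Tecta* and *Otoa* 1 of the 3 forward frames was free of stop codons, and for the dimmer *Tectb* probe 2 were, of which the first is marked. The *Tecta* probe holds 1 such codon, the *Tectb* probe 2 and the *Otoa* probe 0.
*Tecta* probe: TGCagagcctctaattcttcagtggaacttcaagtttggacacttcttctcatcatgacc
*Tectb* dimmer probe: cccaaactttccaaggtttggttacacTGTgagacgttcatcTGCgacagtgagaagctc
*Otoa* probe: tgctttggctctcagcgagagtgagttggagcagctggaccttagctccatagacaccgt

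The other matrix genes around these members were taken from gene lists, with 1 probe per gene. All 6 collagen genes of the tectorial membrane were well above background on the 4 arrays, and in each of the 5 comparisons 0 of 6 changed by 2-fold or more. Their median log2 ratio in DT-treated *Prestin*-*hDTR* mice was 0.08 against untreated *Prestin*-*hDTR*, 0.21 against DT-treated wild-type and 0.22 against untreated wild-type mice, and 0.16 and 0.07 in the 2 remaining comparisons. In the 3 comparisons with DT-treated *Prestin*-*hDTR* mice, the widest ratio was that of *Col9a1* (type IX collagen), with levels of 0.62, 0.60, 0.88 and 1.37 in the order used above. The collagens named here were chosen after their values were seen. *Col2a1* (type II collagen) had levels of 3.49, 3.27, 3.61 and 3.88. Both were highest in DT-treated *Prestin*-*hDTR* mice, but the list was not uniform, since *Col9a2*, with levels of 2.88, 3.02, 3.05 and 2.77, was lowest there.

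Of 5 other genes for inner ear acellular matrix, 1 changed by 2-fold or more in 4 of the comparisons and 0 did in DT-treated *Prestin*-*hDTR* against DT-treated wild-type mice. This was *Otol1* (otolin), a collagen-like protein of otoconia and their membranes, with levels of -6.47, -3.23, -3.05 and -4.08. It was not well above background in untreated wild-type mice, the array on which *Otog* was lowest. *Tecta* was not detected there either, nor on the array of DT-treated *Prestin*-*hDTR* mice, where *Otol1* was detected. *Otol1* was at least 6.49-fold higher in DT-treated than in untreated wild-type mice. Against the same untreated mice it was at least 7.33-fold and 3.60-fold higher in the untreated and the DT-treated *Prestin*-*hDTR* group. Between the *Prestin*-*hDTR* groups it was 2.03-fold lower after DT. *Otogl* (otogelin-like), the closest relative of *Otog*, had levels of -2.77, -2.16, -2.45 and -2.88 and passed 2-fold in no comparison. *Coch* had levels between 5.95 and 6.06.

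The vestibular list holds 3 genes, *Otol1*, *Oc90* (otoconin 90) and *Zpld1* (a protein of the cupula). Its summed signal was 0.0722, 0.156, 0.180 and 0.132 in the order used above. The sum was lowest in untreated wild-type mice, where it takes in the *Otol1* level of -6.47, not well above background. It therefore repeats the *Otol1* result and does not describe the list as a whole. *Oc90* did not share the order of the sum, with levels of -4.32, -4.77, -4.44 and -4.27. *Zpld1* was well above background on 1 array, that of untreated *Prestin*-*hDTR* mice. The part of vestibular tissue in the *Otog* and *Tecta* values was not tested.

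For hair bundle attachment to the tectorial membrane, 3 genes were listed, and no array detected *Pkhd1l1* well above background. *Strc* encodes stereocilin, which ties the tallest OHC stereocilia to the tectorial membrane, and it changed by 2-fold or more in the 3 comparisons with DT-treated *Prestin*-*hDTR* mice and in neither of the others. Its levels were -2.03, -1.87, -1.83 and -4.93. *Tmem145* had levels of -0.25, -0.50, -0.40 and -0.82. *Otoa*, from the same protein family as *Strc*, had its highest level on the array where *Strc* had its lowest. The *Otoa* step between the *Prestin*-*hDTR* groups was 0.34 (error 0.21), within 2 errors, and a link to *Strc* was not tested.

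The family of stereocilin and mesothelin counts 3 genes besides *Otoa*. DT-treated *Prestin*-*hDTR* mice had 2 of the 3 lower by 2-fold or more, both against untreated mice of that genotype and against DT-treated wild-type mice. Besides *Strc* this was *Mslnl* (mesothelin-like), with levels of -4.75, -3.99, -3.80 and -5.13, 2.52-fold and 2.20-fold lower. Against untreated wild-type mice *Mslnl* was only 1.30-fold lower. Its level in DT-treated *Prestin*-*hDTR* mice lay close to the floor of that array (-5.44). *Msln* passed 2-fold in no comparison.

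Of 12 genes with a zona pellucida domain other than the tectorins, 7 were well above background on at least 1 array and 4 on all. *Zp1*, known as a coat protein of the egg, had its lowest level in DT-treated *Prestin*-*hDTR* mice, 2.43-fold lower against untreated mice of the same genotype, 2.58-fold against wild-type mice with DT and 2.41-fold against wild-type mice without. Its levels were -1.60, -1.50, -1.58 and -2.87. *Gp2* was detected on the array of DT-treated *Prestin*-*hDTR* mice only, at least 3.05-fold above untreated mice of that genotype and at least 2.21-fold above untreated wild-type mice. *Tgfbr3* passed 2-fold in no comparison, and *Umod*, *Zp2*, *Zp3*, *Cuzd1* and *Oit3* were not well above background on any array.

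Of the CEACAM family, 11 of 12 listed genes were found on the array and 3 were well above background, *Ceacam2*, *Ceacam10* and *Ceacam20*. None of these relatives of *Ceacam16* passed 2-fold in any comparison (0 of 3 in each). Of 9 genes for proteins with von Willebrand D domains and gel-forming mucins, 6 were well above background on at least 1 array. *Zan* was well above background in untreated wild-type mice only, at least 2.25-fold above untreated *Prestin*-*hDTR* mice, and 0 of the genes compared, *Vwf* (von Willebrand factor) among them, passed 2-fold elsewhere.

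Supporting cells, which make *Ceacam16*, and fibrocytes, which make *Otos*, were read from their own lists. Of 9 supporting cell genes, 0 changed by 2-fold or more in any comparison. The summed supporting cell signal was 130.1, 125, 132 and 154 in the order used above, highest on the array where *Ceacam16* was highest. *Gjb6* (connexin 30) had levels of 5.78, 5.68, 5.70 and 5.90, and the defining markers *Sox2* and *Prox1* were well above background on all 4 arrays. *Prox1* had levels of -4.09, -4.44, -4.47 and -4.70, and *Sox2* -1.69, -1.65, -1.53 and -1.68, so the list did not move as 1. Its part in the *Ceacam16* values was not tested.

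Of 6 fibrocyte genes, 0 changed by 2-fold or more in any comparison, and their summed signal was 198, 205, 221 and 226 in the order used above. The list did not move as 1. *Car3* had levels of 5.19, 5.47, 5.70 and 6.09, highest in DT-treated *Prestin*-*hDTR* mice. *Slc4a11*, with 5.97, 6.07, 6.17 and 5.81, was lowest there, and *Coch* had 6.06, 5.95, 6.05 and 6.02. *Otos* itself, which was lower in the *Prestin*-*hDTR* groups, did not follow the sum, and the part of fibrocytes in its values was not tested.

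Other cell types differed between the arrays beside the members. Of 5 macrophage genes, 3 (*Cd68*, *Adgre1*, listed on the array as *Emr1*, and *C1qb*) were 2-fold or more above each other group in DT-treated *Prestin*-*hDTR* mice, *Csf1r* passed 2-fold in no comparison, and the list had a summed signal of 11.54, 11.04, 9.96 and 17.59. Of 5 neutrophil genes, all 5 (*Camp*, *Ngp*, *Ltf*, *S100a8* and *S100a9*) were lower by 2-fold or more in the *Prestin*-*hDTR* than in the wild-type group, both without and with DT. Their summed signal was 35.3, 55.2, 12.6 and 20.6, and *Ltf* (lactoferrin) was also 2.52-fold higher after DT in wild-type and 2.07-fold higher in *Prestin*-*hDTR* mice.

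Between the wild-type arrays, 0 of the bone and airway-type genes compared changed by 2-fold or more. After DT in wild-type mice, the erythroid genes *Alas2*, *Hbb-b1* and *Hba-a1* were 1.92-fold, 1.75-fold and 1.21-fold higher, and the Schwann cell gene *Mbp* was 1.51-fold lower. The summed signal of 5 osteoblast and osteocyte genes was 10.9, 14.3, 9.24 and 6.94, and *Bglap* (osteocalcin) was 2.78-fold lower in DT-treated *Prestin*-*hDTR* than in DT-treated wild-type mice. The airway-type gene *Bpifa1* had levels of 1.16, 1.96, 0.65 and -0.66. The part of these cell types in the *Otog*, *Tecta* and *Ceacam16* values was not tested.

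Lastly, the genes with the most similar profile were sought for each member probe measured on all arrays. Likeness was the root mean square difference of log2 signals over the 4 arrays, each centred on its own mean, among 19461 probes with a gene name in the RefSeq table. For *Otog* the nearest genes were *Zfp738* (0.084), *Lrba* (0.085) and *Bpifb3* (0.102), and only 2 probes came within 0.1. For *Ceacam16* they were *Slc5a11* (0.026), *Vmn2r111* (0.031) and *9930014A18Rik* (0.036), with 96 probes within 0.1.

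Flatter profiles had far more neighbours. For *Otoa* the nearest were *Ctnnd1*, *Gm13315* and *Atp6v1c2* (each 0.022), with 762 probes within 0.1. For *Otos* they were *Rbbp8nl* (0.024), *Dhx37* (0.025) and *Naaladl2* (0.026), with 322 probes within 0.1. For the brighter *Tectb* probe they were *Meis3* (0.007), *Evc2* (0.009) and *Bricd5* (0.024), and for the dimmer one *Ifnar1* (0.005), *Wdr60* (0.012) and *Tox3* (0.017), with 1242 and 1632 probes within 0.1. With 4 arrays, many probes share a profile by its shape alone, and all of these profiles come from the same RNA pools.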

How the data were processed

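Per the file headers and the methods, the authors read the arrays with Agilent Feature Extraction 11.5.1.1 and deposited 1 scanner file per array, whose spot values are a linear intensity that the software corrected for background and detrended within each array. The authors also deposited a value table in which that intensity is divided by a single constant for each array (2923.87, 3364.71, 3230.10 and 3304.47), a linear ratio with column medians of 0.0865, 0.0853, 0.0828 and 0.0850, used for 1 alternative. From the deposited intensity, control spots and the 149 to 228 outlier spots per array were removed, spots of a probe were averaged, log2 was taken and the 75th percentile of the array subtracted. A probe counted as well above background when more than 0.5 of its spots carried that flag, which 62.2% to 70.6% of probes did. Repeated spots had a median SD of 0.061 to 0.071 on the log2 scale.

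Every *Tecta*, *Tectb*, *Ceacam16*, *Otog*, *Otoa* and *Otos* probe is named. For the 22 other lists, genes past 2-fold in any comparison (up to 4 a list), the gene with the highest mean probe signal and defining markers are named, and for each member probe the 3 most similar genes. The members and lists were chosen with earlier results of these data known, and 3 genes in 2 of the lists are not reported here, nor are the sums and medians of those lists. The RefSeq gene table (GRCm38.p6) was used for gene names only. Alternatives changed the scaling, the filter, the floor, the fold, the source of values and the background correction (normexp, offset 50). The comparison steps were tested on simulated data. R 4.3.3 with limma 3.58.1 and Python 3.11.15 with matplotlib 3.10.9, pandas 2.3.3 and numpy 2.4.6 were used.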

Additional observations from a re-analysis of the deposited data

Results flagged for a closer look

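For 5 of the 7 probes, the DT effect had opposite signs in *Prestin*-*hDTR* and wild-type mice. The share of all probes with opposite signs was not counted, so this count is not a result about the members. Both effects were within 2 errors for *Ceacam16* and the *Tectb* probes, as was the *Prestin*-*hDTR* effect for *Otog*. That of *Ceacam16* in *Prestin*-*hDTR* mice rose above 2 errors with quantile normalization (0.43) and in the value table (0.41). With 1 array per group the difference was not tested for any of the 5 probes. On the log2 scale, the *Prestin*-*hDTR* effect minus the wild-type effect was -1.25 for *Otog* (-0.21 and 1.04), 0.69 for *Ceacam16* (0.40 and -0.30), -0.52 for the brighter *Tectb* probe (-0.34 and 0.19) and -0.53 for the dimmer one (-0.31 and 0.22). For *Tecta* both effects are bounds (-0.66 and 1.67), and their difference at these bounds was -2.33. Of these values, those of *Otog* and *Ceacam16* exceeded 2 errors of the scanner software (with quantile normalization *Ceacam16*, at 0.54, did not), and for *Tecta* that error could not be given.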

How the results depend on the processing

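The counts of member probes past 2-fold were 0, 1, 0, 1 and 2 in the order of the report. Under normexp, the counts that moved were those against DT-treated wild-type mice (0), between the untreated groups (0) and between the wild-type groups (0), where the share of all probes fell to 2.25%, 1.24% and 1.54%. With only probes well above background on all 4 arrays, which leaves *Tecta* out, the same counts were 0, 0 and 1, beside 1.65%, 0.777% and 0.861% of all probes. With no filter and no floor, 1 probe (*Tecta*) passed between the *Prestin*-*hDTR* groups, beside 7.59% of all probes. At 1.5-fold the counts were 1, 2, 1 and 2 for the first 4 comparisons. The 3 other scalings and the value table left all 5 counts as they were. Of 170 log2 ratios recomputed under the 5 corrections, scalings and sources, 164 moved by less than the error of the scanner software (for *Tecta*, that of the array that detected it), and 6 moved further. These were *Tecta* under normexp (-0.17, -0.48, 0.32 and 0.64) and *Otos* under quantile normalization against DT-treated wild-type (-0.14) and untreated wild-type mice (0.00), and the cause was not tested. The sign turned in 7 ratios, 5 of *Tectb* in DT-treated *Prestin*-*hDTR* against untreated wild-type mice and 2 of *Otos* between the *Prestin*-*hDTR* groups (0.17 with quantile normalization and 0.01 in the value table, from -0.00). The *Otos* difference of DT effects also turned, to 0.03 with quantile normalization. For the 6 probes measured on all arrays, the differences of DT effects moved by less than their error in each of these settings, and that of *Tecta* at its bounds was -0.80 under normexp. No paired analysis was possible because each group has 1 array. Dim signal limits *Tecta*, which was well above background on 2 arrays.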

Other observations

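The lists of other cochlear cells and tissues held few changes of 2-fold or more. Of 7 genes of the stria vascularis, the epithelium that makes endolymph, 1 passed in 1 comparison, which was *Tyr* (tyrosinase), with DT-treated *Prestin*-*hDTR* mice 2.12-fold above untreated wild-type mice. The stria gene *Dct* had normalized log2 signals between 5.85 and 6.03. Both inner hair cell genes, *Otof* and *Slc17a8*, stayed under 2-fold in all 5 comparisons, and the median of their log2 ratios after DT was -0.54 for *Prestin*-*hDTR* mice. The 3 neuron genes *Nefl*, *Nefm* and *Snap25* stayed under 2-fold as well.

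Of 4 skeletal muscle genes, *Ckm* was not detected well above background, and the summed signal of the others, *Acta1* among them, lay between 0.0686 and 0.0956. Of 3 airway-type genes, *Bpifa1* was 2.47-fold lower after DT in *Prestin*-*hDTR* mice. The reference genes *Actb*, *Gapdh*, *Hprt* and *Tbp* stayed under 2-fold in all 5 comparisons, and the median of their log2 ratios lay between -0.12 and 0.08.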
